A study of Mus musculus with 48 samples.

Results

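The genes described here encode 57 ribosome biogenesis factors, the proteins that transcribe, process and modify ribosomal RNA and assemble it into subunits. They were taken by gene symbol from a table of 55487 genes, and all 57 were found and passed the filter on low counts in RNA and in ribosome footprints. For description they were put into 7 roles: RNA polymerase I transcription (3 genes), the snoRNP core and its chaperone (5), abundant nucleolar proteins (2), the small-subunit processome (22), pre-40S maturation (8), nucleolar pre-60S assembly (14) and late pre-60S export and maturation (3).

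Ribosomes are built mostly in the nucleolus. RNA polymerase I transcribes a long precursor RNA, small nucleolar RNPs (snoRNPs) guide its methylation and pseudouridylation, and the small-subunit processome folds and cleaves its 5′ part while a separate set of factors assembles the large subunit around the 3′ part. Late factors then carry each precursor through the nuclear pore and test it in the cytoplasm. Many of these genes are targets of the transcription factor Myc and are expressed at high levels in dividing blood cells.

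The cells were CRISPR-Cas9 clones of Ba/F3, an established line of mouse pro-B cells whose growth depends on interleukin 3. All groups grew with 1 ng/ml interleukin 3 in 10% serum, and all received cycloheximide, which holds ribosomes on the mRNA, at 0.1 mg/ml for 1 min before harvest. There were 8 genotypes with 3 clones each. Of the 7 mutant genotypes 5 touch proteins of the large subunit: loss of an allele of Rpl5 (Rpl5+/-) or Rpl11 (Rpl11+/-), loss of either 1 or both alleles of Rpl22 (Rpl22+/-, Rpl22-/-), and the point mutation R98S in Rpl10. The other 2 carry a point mutation in Rps15, a protein of the small subunit, either P131S or H137Y. Wild-type (WT) clones were the controls. The labels write R98S and H137Y for both alleles. P131S is written for both alleles in the genotype label and the footprint titles but once in the RNA titles. Every group is a set of clones of 1 cell line, so p-values measure the spread between clones only. In the main fits that spread was shared over all 8 genotypes, and is not that of the groups compared alone. A property of the clone other than its edited gene cannot be told apart from the genotype where all 3 clones share it. From each lysate an RNA-seq library of poly(A) RNA and a library of footprints of 28 to 30 nt were made, 48 libraries in all.

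RNA libraries held between 13029073 and 38258559 estimated counts and footprint libraries between 15598994 and 72044439. RNA of Rpl5 stood at 67.2% of the WT mean in Rpl5+/- and that of Rpl11 at 64.1% in Rpl11+/-. Rpl22 RNA was at 66.7% in Rpl22-/-, and its footprints were at 58.7% in Rpl22+/- and 27.9% in Rpl22-/-. Of the Rpl22-/- clones, clone 30 had Rpl22 footprints within the range of the Rpl22+/- clones (1540 CPM, the count divided by the scaled library size). The count of members called in this genotype is also given without clone 30. Other values for Rpl22-/-, also against Rpl22+/-, include it unless a clone was left out. Point mutations cannot be checked from counts per gene. Rps15 RNA ran from 907 to 1940 CPM among P131S clones and from 817 to 1830 among H137Y clones, against 1430 to 1450 in WT. Of 14 pro-B cell markers 2 (Ptprc, Cd79b) had a median of at least 1 CPM over the RNA libraries. Dntt and Il7r were at 0 in every RNA library, while all 3 interleukin 3 receptor genes were present.

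Promoter windows were available for 47 of the 57 genes, from RefSeq on GRCm38.p6, 250 bases before to 50 after the annotated start. They are shown because the genes moved together and because the E-box CACGTG, its own reverse complement, is the site bound by Myc and its partners. It was present in the windows of 12 members, 25.5% of those matched, against 7.2% of all 32851 windows and 9.9% of the 11556 windows of genes tested in RNA. The ETS-type sequence CCGGAAGT, searched on both strands, was present for 13 members (27.7%), against 3.9% of all windows and 8.8% of those of tested genes. The palindromic BANP motif was found for 0 members, against 0.5% and 1.1%. A match is a description of the window only. The 250 bases before the start are printed for 4 members with an E-box there and for Polr1a, which had the largest change in footprints and none of the 3 sequences in its window. The E-box is in capitals. All 5 are on the plus strand, at chr16:13780449-13780698 (Rrn3), chr6:125131633-125131882 (Nop2), chr3:69721805-69722054 (Nmd3), chr1:34439579-34439828 (Imp4) and chr6:71908803-71909052 (Polr1a).
Rrn3: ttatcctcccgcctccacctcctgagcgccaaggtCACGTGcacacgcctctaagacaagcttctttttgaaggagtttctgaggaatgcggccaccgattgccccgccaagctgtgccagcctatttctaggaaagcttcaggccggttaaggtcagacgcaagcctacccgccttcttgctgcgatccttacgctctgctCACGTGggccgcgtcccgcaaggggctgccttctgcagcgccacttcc
Nop2: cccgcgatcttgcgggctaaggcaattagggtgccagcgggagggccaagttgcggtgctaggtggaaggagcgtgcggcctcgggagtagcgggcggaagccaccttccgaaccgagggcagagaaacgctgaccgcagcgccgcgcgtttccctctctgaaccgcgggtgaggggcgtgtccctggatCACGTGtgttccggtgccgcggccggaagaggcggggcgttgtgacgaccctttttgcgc
Nmd3: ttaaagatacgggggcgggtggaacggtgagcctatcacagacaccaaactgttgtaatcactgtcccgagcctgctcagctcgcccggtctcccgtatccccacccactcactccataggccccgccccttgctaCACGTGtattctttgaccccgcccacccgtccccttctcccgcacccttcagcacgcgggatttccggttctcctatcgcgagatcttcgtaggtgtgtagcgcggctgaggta
Imp4: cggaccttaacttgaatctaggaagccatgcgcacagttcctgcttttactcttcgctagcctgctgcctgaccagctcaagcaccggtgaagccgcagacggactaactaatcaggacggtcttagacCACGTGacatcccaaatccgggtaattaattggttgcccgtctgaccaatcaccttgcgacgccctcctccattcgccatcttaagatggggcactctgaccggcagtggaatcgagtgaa
Polr1a: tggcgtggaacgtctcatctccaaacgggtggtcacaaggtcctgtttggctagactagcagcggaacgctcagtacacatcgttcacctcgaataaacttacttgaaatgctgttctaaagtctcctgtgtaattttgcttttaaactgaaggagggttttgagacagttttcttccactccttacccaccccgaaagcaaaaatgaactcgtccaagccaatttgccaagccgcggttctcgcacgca
Rrn3, the initiation factor of RNA polymerase I, had 2 E-boxes, beginning 215 and 48 bases before the start. The E-box of Nop2, an rRNA methyltransferase, began 60 bases before the start, that of Nmd3, the export adaptor of the large subunit, 114 bases before, and that of Imp4, a processome protein, 121 bases before. In Rps15 P131S the median log2 change in RNA was 0.50 over the 12 members with an E-box and 0.43 over the 35 without. In Rps15 H137Y it was 0.27 for both. In footprints the order was the other way, 0.51 with and 0.56 without an E-box in P131S, and 0.24 and 0.32 in H137Y.

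In the fit of all genotypes, biogenesis genes were called higher than WT in 4 of the 7 mutant genotypes, most often in both Rps15 genotypes. A member is called here when edgeR's quasi-likelihood test gave a Benjamini-Hochberg adjusted p under 0.05 over all genes tested in that comparison, 12814 genes in RNA. In Rps15 P131S 47 of 57 members rose and 0 fell in RNA, with a median log2 change of 0.45, while 23.7% of all genes rose and 23.4% fell (47.0% in all). In Rps15 H137Y 32 rose and 2 fell, with a median of 0.28, against 21.0% and 20.0% of all genes (41.0% in all). In Rpl10 R98S 20 rose and 1 fell, with a median of 0.24, against 6.82% and 6.03% of all genes (12.9% in all). In Rpl11+/- 18 rose and 0 fell, with a median of 0.22, against 5.73% and 6.05% of all genes (11.8% in all). The plot of changes by genotype sets each member beside the quartiles of all genes tested.

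**Figure D1:**
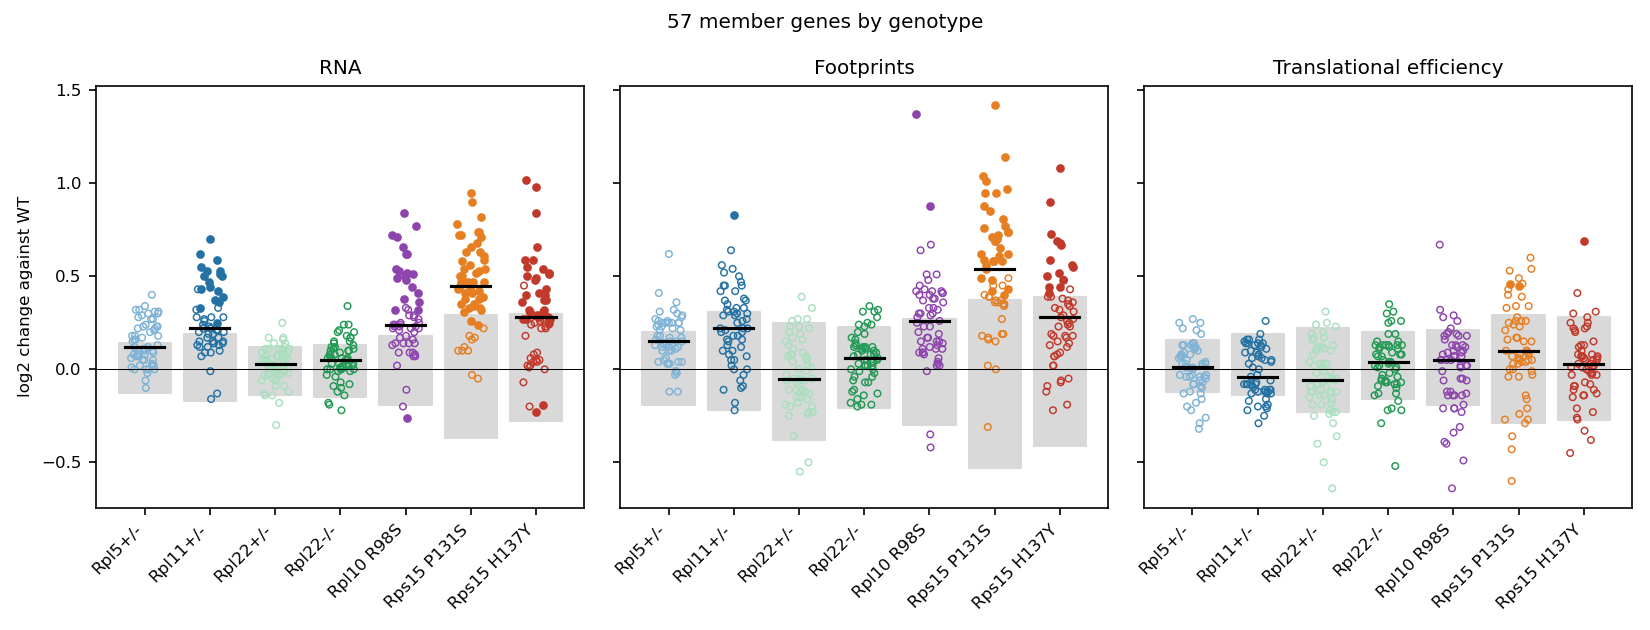
Log2 change against WT (y axis) of each of the 57 members (points) in each mutant genotype (x axis) for RNA, footprints and translational efficiency; filled points were called, black lines are the members' medians and grey boxes span the quartiles of all genes tested. In RNA the black line lies at 0.45 in Rps15 P131S and 0.28 in Rps15 H137Y, and near 0 in both Rpl22 genotypes.

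No member was called in Rpl5+/-, Rpl22+/- or Rpl22-/- by edgeR, in RNA, footprints or translational efficiency. In RNA 1.04% of all genes were called in Rpl5+/- (0.624% higher, 0.414% lower), 3.9% in Rpl22+/- (1.08% higher, 2.82% lower) and 5.27% in Rpl22-/- (1.47% higher, 3.8% lower). In Rpl5+/- 51 of 57 members were above WT with a median log2 change of 0.12. An unadjusted p under 0.05 was found for 12 members and for 1897 of all 12814 genes. DESeq2 called 3 members (2.9% of all genes) and limma voom 0 (0.897%). EdgeR fitted on the Rpl5+/- and WT libraries alone called 24, when 15.8% of all genes were called. In Rpl22+/- 2 members had an unadjusted p under 0.05 in RNA, and in Rpl22-/- 4 did, against 1982 and 2312 of all genes. DESeq2 and limma voom called 0 members in either genotype. EdgeR on the groups compared alone called 2 in Rpl22+/- and 5 in Rpl22-/-, when 1248 of 11934 and 1436 of 11928 genes were called. The medians there were 0.03 and 0.05. Leaving out clone 30 of Rpl22-/- also gave 0 members called. Rpl22-/- against Rpl22+/- gave 0 members in RNA, with 0.0078% of all genes called and 0 members called by DESeq2 or limma voom. An unadjusted p under 0.05 was found there for 0 members and 538 of all genes. In footprints of that comparison edgeR called 0 members and 0.00617% of all genes. There 13 members and 2336 of all 16217 genes had an unadjusted p under 0.05. DESeq2 called 1 member and limma voom 0.

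Footprints gave the same order of genotypes with fewer calls, over 16217 genes tested. In Rps15 P131S 34 members rose and 0 fell, with a median log2 change of 0.54, against 8.42% and 8.28% of all genes (16.7% in all). In Rps15 H137Y 15 rose and 0 fell, with a median of 0.28, against 5.22% and 6.44% of all genes (11.7% in all). In Rpl10 R98S 2 members rose (Ebna1bp2, Polr1a), against 0.814% of all genes rising and 0.808% falling (1.62% in all). In Rpl11+/- 1 rose (Polr1a), against 0.0617% rising and 0.0123% falling (0.074% in all). The members' medians in these genotypes, 0.26 and 0.22, were close to those in RNA. The standard error of a member's change was larger in footprints (median 0.16) than in RNA (median 0.1). In footprints of Rpl5+/- 0.0123% of all genes were called (0.00617% in each direction), of Rpl22+/- 0.253% (0.142% higher, 0.111% lower) and of Rpl22-/- 0.105% (0.074% higher, 0.0308% lower). There 5, 5 and 1 members had an unadjusted p under 0.05, against 667, 2223 and 1093 of all genes. DESeq2 and limma voom called 0 members in each.

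The clones of a genotype did not move equally. The median over the 57 members of log2 CPM over the WT mean was 0.70 in P131S clone 20, and 0.28 and 0.33 in clones 24 and 63. Clones 16, 6 and 2 of H137Y stood at 0.26, 0.31 and 0.33. Among Rpl11+/- clones, clone 414 was at 0.09 and clones 406 and 22 at 0.31 and 0.26. In footprints P131S clone 20 was at 0.78, and clones 24 and 63 were at 0.29 and 0.43. Without P131S clone 20, 40 members rose in RNA, when 39.3% of all genes were called, and 22 in footprints, when 10.3% were. Without Rpl11+/- clone 22, 5 members rose in RNA in Rpl11+/- (4.75% of all genes called), without clone 406, 7 (6.33%). Every comparison with WT shares the same 3 WT clones. Omitting WT clone 3, 2 or 1 left 6, 11 and 10 members called in Rpl11+/- RNA, with 5.3%, 6.3% and 6.93% of all genes. Omitting WT clone 3 left 13 in R98S RNA (6.25%) and 22 in H137Y RNA (33.3%), and omitting R98S clone A29 left 13 (6.57%). In H137Y footprints omitting WT clone 3, 2 or 1 left 6, 6 and 9 (7.61%, 7.67% and 7.08% of all genes), and omitting H137Y clone 2 left 6 (9.18%). Fitted on the R98S and WT libraries alone, edgeR called 46 members in R98S RNA, when 35.4% of all genes were called.

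**Figure D2:**
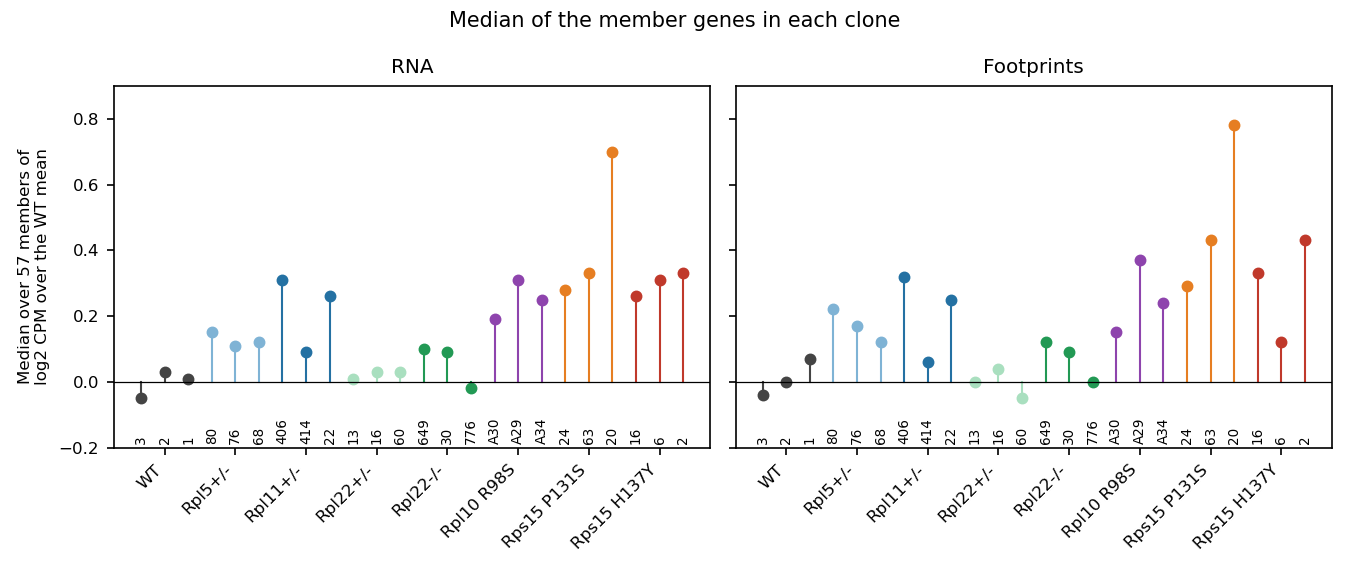
Median over the 57 members of log2 CPM over the WT mean (y axis) in each clone (stems, with the clone's number below), for RNA and footprints. Clone 20 of Rps15 P131S is the highest at both levels, at 0.70 and 0.78, and the Rpl22 clones lie between -0.05 and 0.12.

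**Figure D3:**
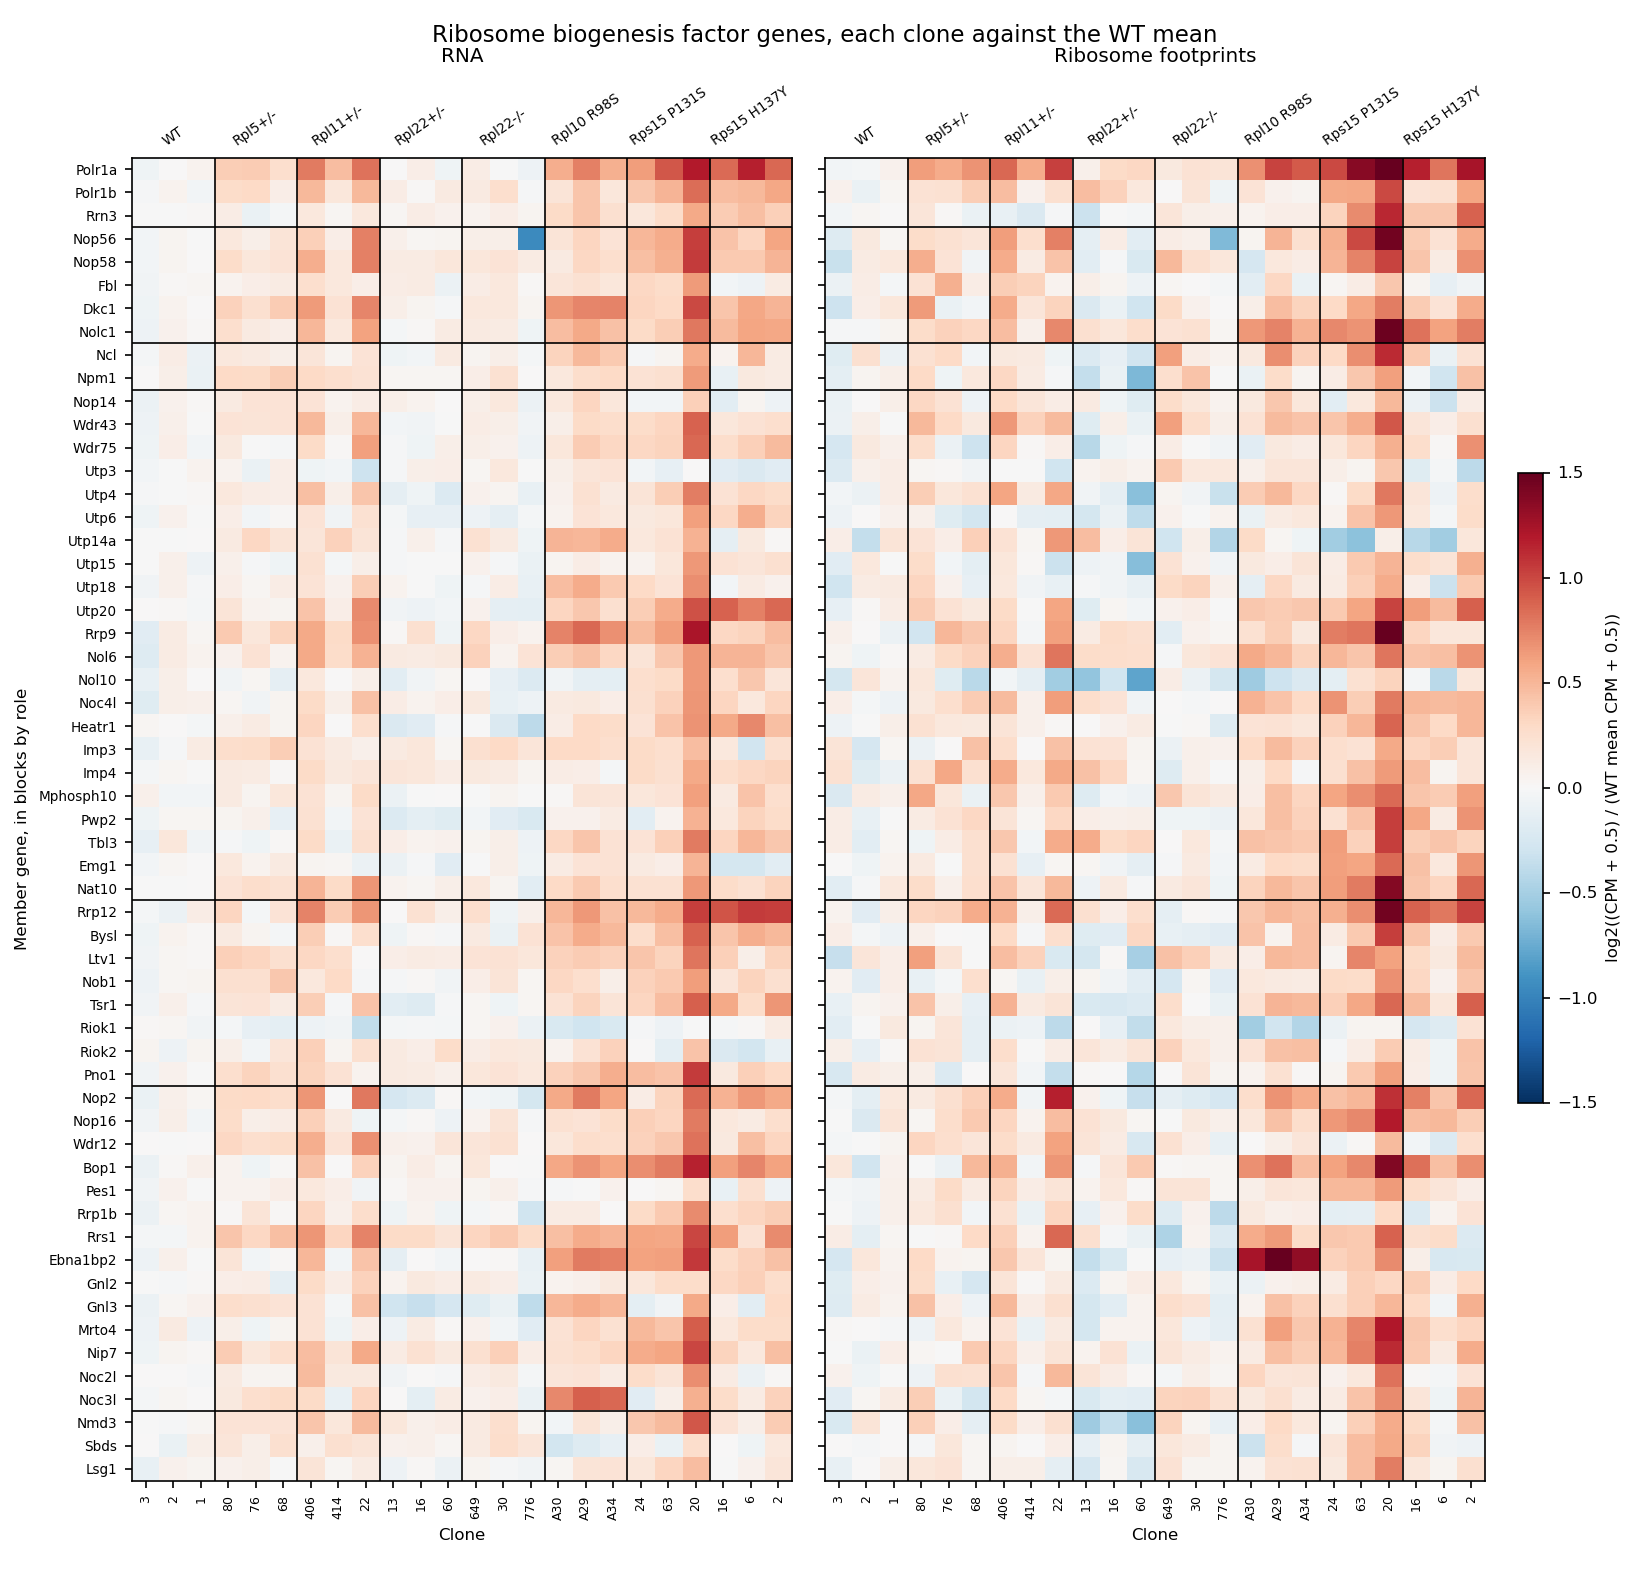
Log2 of CPM over the WT mean, with 0.5 CPM added to both, for each member (rows, in blocks by role) in each clone (columns), for RNA and footprints; red is above and blue below the WT mean. The Rps15 columns are red in most rows, Ebna1bp2 is darkest in the footprints of Rpl10 R98S, and Nop56 is blue in 1 Rpl22-/- clone.

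The RNA polymerase I genes held the largest change of any member in footprints. Polr1a, the largest subunit of the polymerase (chromosome 6, 71909053 to 71979435, GRCm38.p6), had RNA at 29.5, 30.9 and 32.0 CPM in WT. It reached 47.99, 59.3 and 70.9 CPM in Rps15 P131S and 56.0, 56.5 and 69.8 in H137Y. It stood at 42.5, 53.1 and 54.6 CPM in Rpl11+/- and at 44.6, 45.1 and 52.3 in R98S. No clone of these 4 genotypes overlapped WT. The log2 change by edgeR was 0.95 ± 0.12 (SE) in P131S, 0.98 ± 0.12 in H137Y, 0.70 ± 0.12 in Rpl11+/- and 0.62 ± 0.12 in R98S, with adjusted p-values between 2.48e-06 and 0.00187. In Rpl5+/- the clones at 36.8, 40.1 and 40.2 CPM also lay above every WT clone, but the change did not pass the test (0.34 ± 0.12, adjusted p = 0.168). Footprints of Polr1a were at 62.2, 62.8 and 67.1 CPM in WT and 128, 165 and 219 in P131S (1.42 ± 0.16, adjusted p = 1.34e-05). In Rpl11+/- the footprint call (0.83 ± 0.16, adjusted p = 0.0454) was dropped in 5 of the 6 fits that each omitted a clone. The genes Gm26628 and Gm19078 overlap Polr1a. Whether the authors' counting used strand is not given in the sources used here.

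The remaining genes of this role moved less. Polr1b, the second-largest subunit, had RNA at 21.9, 22.3 and 23.3 CPM in WT and 29.9, 32.3 and 40.7 in P131S, with no overlap. It rose by 0.61 ± 0.11 in P131S, 0.52 ± 0.11 in H137Y and 0.39 ± 0.11 in Rpl11+/-. The Rpl11+/- call was lost in 5 of 6 fits that each omitted a clone. Rrn3, whose promoter is printed above, had RNA at 72.01, 72.1 and 73.0 CPM in WT and 92.6, 94.6 and 99.0 in H137Y (0.40 ± 0.08, adjusted p = 0.000455). Footprints of Rrn3 stood at 103, 106 and 108 CPM in WT, 134, 173 and 231 in P131S and 140.4, 141 and 196 in H137Y. All Rps15 clones were above all WT clones, and the changes were 0.76 ± 0.15 and 0.59 ± 0.15. Omitting a clone at a time kept the P131S footprint call in 6 of 6 fits and the H137Y footprint call in 3 of 6.

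All 5 genes of the snoRNP core and its chaperone rose in RNA in P131S, 3 of 5 in H137Y and in Rpl11+/-, and 2 in R98S. Of all genes 23.7% rose in P131S RNA, 21.0% in H137Y, 5.73% in Rpl11+/- and 6.82% in R98S. Nop58, a scaffold of the box C/D snoRNPs that guide rRNA methylation, had RNA at 240.2, 247 and 253 CPM in WT and 339, 358 and 512 in P131S (0.71 ± 0.12, adjusted p = 0.000107). Nop56, its partner scaffold, rose in P131S by 0.72 ± 0.20 in RNA and 1.04 ± 0.21 in footprints. In Rpl22-/- the clones had Nop56 RNA at 115, 236 and 236 CPM, with clone 776 the low one. Its footprints there were 233, 388 and 397 CPM, and clone 776 was again the low one. Nop56 contains 5 snoRNA genes and overlaps Idh3b. Dkc1, the pseudouridine synthase of the box H/ACA snoRNPs, had RNA at 168, 176 and 182 CPM in WT and 278, 292 and 293 in R98S (0.71 ± 0.14, adjusted p = 0.00201). Nolc1, a nucleolar chaperone of snoRNPs, rose in RNA by 0.50 in P131S, 0.55 in H137Y, 0.49 in R98S and 0.43 in Rpl11+/-. The Rpl11+/- call was lost in 3 of 6 fits that each omitted a clone. Footprints of Nolc1 rose by 1.01 ± 0.17 in P131S and 0.73 ± 0.16 in H137Y. Fbl, the methyltransferase fibrillarin, rose in P131S RNA (0.42 ± 0.08) and was not called in H137Y (0.00 ± 0.08). A processed copy, Fbl-ps2, is in the table and may share reads with it.

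Of the abundant nucleolar proteins, Npm1 (nucleophosmin) had RNA at 2299, 2484 and 2611 CPM in WT and 2870, 2921 and 3851 in P131S (0.38 ± 0.09, adjusted p = 0.00142). In H137Y its clones at 2286, 2678 and 2738 CPM overlapped WT. Ncl, nucleolin, rose in R98S RNA, to 1758, 1831 and 1963 CPM from 1319, 1364 and 1509 (0.41 ± 0.12, adjusted p = 0.0306). That call was lost in 5 of 6 fits that each omitted a clone. In P131S its RNA was not called (0.22 ± 0.12) and its footprints rose, to 2637, 3465 and 4627 CPM from 1884, 2003 and 2520 in WT (0.74 ± 0.19, adjusted p = 0.0111). The footprint call was lost in 3 of 6 such fits.

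Of the 22 processome genes 19 rose in RNA in P131S, 13 rose and 2 fell in H137Y, 5 rose in R98S and 6 in Rpl11+/-. Of all genes 23.7% rose in P131S, 21.0% rose and 20.0% fell in H137Y, 6.82% rose in R98S and 5.73% in Rpl11+/-. Utp20, a large scaffold protein, had RNA at 33.5, 34.6 and 34.8 CPM in WT, 58.4, 62.8 and 63.6 in H137Y and 44.6, 50.6 and 67.1 in P131S. Both Rps15 genotypes lay above WT (0.84 ± 0.13, adjusted p = 2.56e-05 for H137Y) and overlapped each other. Heatr1, another large scaffold, rose by 0.59 ± 0.11 in H137Y and 0.45 ± 0.11 in P131S. Rrp9, which binds the U3 snoRNA, had RNA at 29.1, 33.3 and 35.4 CPM in WT, 52.6, 54.8 and 59.5 in R98S and 45.5, 50.8 and 76.7 in P131S. The changes were 0.77 ± 0.15 and 0.82 ± 0.15. Footprints of Rrp9 were 27.6, 29.4 and 31.1 CPM in WT, 50.3, 51.5 and 92.2 in P131S (1.14 ± 0.21, adjusted p = 0.00096) and 33.0, 33.1 and 36.9 in H137Y. Nat10, an RNA acetyltransferase, rose in RNA in all 4 genotypes, by 0.50 ± 0.10 in Rpl11+/-, where its change was greatest. Omitting a clone at a time, its R98S call was lost in 6 of 6 fits and its H137Y call in 5 of 6. Its P131S footprints reached 234, 258 and 391.7 CPM against 134, 149 and 168 in WT.

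Emg1, an rRNA pseudouridine methyltransferase, was called in opposite directions in the Rps15 genotypes. Its RNA was at 157, 163 and 164 CPM in WT, 173, 177 and 230.3 in P131S and 135, 135 and 144 in H137Y, with no overlap between the 3 groups. The changes were 0.26 ± 0.08, adjusted p = 0.0116 in P131S and -0.23 ± 0.08, adjusted p = 0.0292 in H137Y. Omitting a clone at a time kept the P131S call in 5 of 6 fits and the H137Y call in 2 of 6. Footprints of Emg1 were at 173, 182 and 187 CPM in WT and rose in both, to 272, 277 and 327 in P131S and 202, 246 and 285 in H137Y (0.69 ± 0.12 and 0.44 ± 0.12). The H137Y footprint call was kept in 3 of 6 such fits. Emg1 overlaps Lpcat3. Utp3, another processome protein, also fell in H137Y RNA, to 61.6, 63.8 and 63.8 CPM from 69.6, 71.5 and 74.6 in WT (-0.19 ± 0.07, adjusted p = 0.0379). That call was lost in 5 of 6 such fits.

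The pre-40S factors were led by Rrp12, an export factor of the small subunit. Rrp12 RNA was at 28.4, 29.5 and 32.7 CPM in WT and 58.5, 62.5 and 63.0 in H137Y (1.02 ± 0.13, adjusted p = 3.42e-06), the largest change of any member in RNA. It was at 42.5, 44.5 and 62.3 CPM in P131S (0.72 ± 0.13), 39.6, 48.3 and 51.1 in Rpl11+/- (0.62 ± 0.13) and 41.1, 43.0 and 47.7 in R98S (0.54 ± 0.13). Footprints of Rrp12 rose by 0.95 ± 0.19 in P131S and 0.90 ± 0.19 in H137Y. Riok1, a kinase of late pre-40S particles, was the 1 member that fell in R98S RNA, to 32.3, 33.9 and 34.1 CPM from 38.6, 40.5 and 40.6 in WT (-0.26 ± 0.07, adjusted p = 0.0244). That call was dropped in 4 of 6 fits that each omitted a clone. Riok2, a related kinase, lay at 26.4, 27.5 and 29.5 CPM in H137Y and 30.3, 32.9 and 32.9 in WT, with no call (-0.20 ± 0.11). Pno1, an RNA-binding factor of the pre-40S particle, rose in P131S (0.68 ± 0.11) and R98S (0.44 ± 0.11).

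Of the 14 nucleolar pre-60S genes 11 rose in RNA in P131S, 8 in H137Y, 6 in R98S and 5 in Rpl11+/-. The shares of all genes rising there were 23.7%, 21.0%, 6.82% and 5.73%. Bop1, which forms a complex with Pes1 and Wdr12, had RNA at 74.9, 80.5 and 83.8 CPM in WT and 129.8, 136.9 and 178 in P131S (0.90 ± 0.10, adjusted p = 1.08e-06). Its clones at 122, 123 and 133 CPM in H137Y and 119.7, 120.5 and 127 in R98S were also above all WT clones. Pes1 was not called in RNA in any genotype, and its P131S clones at 126, 128 and 152 CPM overlapped WT at 121, 125 and 131.4. Wdr12 rose in P131S, H137Y and Rpl11+/- by 0.54, 0.31 and 0.50. Its H137Y call was lost in 5 of 6 fits that each omitted a clone. Rrs1, which brings the 5S RNP into the large subunit, rose in all 4 genotypes, by 0.74 in P131S, 0.59 in Rpl11+/-, 0.54 in H137Y and 0.51 in R98S. Mrto4, an assembly factor of the ribosomal stalk, rose in P131S RNA (0.63 ± 0.10) and footprints (0.85 ± 0.15). A processed copy of it, Mrto4-ps1, is in the table.

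Ebna1bp2 and Noc3l had the largest RNA changes of this role in R98S. Ebna1bp2, an early pre-60S factor, had RNA at 106, 111 and 118 CPM in WT and 172, 189 and 192 in R98S (0.72 ± 0.12, adjusted p = 0.000585). Its footprints were at 111, 136 and 148 CPM in WT and 311, 331 and 383 in R98S (1.37 ± 0.14, adjusted p = 2.8e-05), and no clone of another genotype was above 215 CPM. Noc3l, which binds Noc2l in the pre-60S particle, had RNA at 33.0, 33.9 and 34.5 CPM in WT and 56.0, 61.7 and 63.6 in R98S (0.84 ± 0.13, adjusted p = 0.000421). Its footprints in R98S at 87.8, 89.3 and 95.2 CPM overlapped those in WT at 71.8, 82.2 and 88.1 (0.17 ± 0.16). Ebna1bp2 overlaps Cfap57. Both RNA calls and the Ebna1bp2 footprint call were kept in all 6 fits that each omitted a clone.

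Of the 3 late pre-60S genes 2 rose in P131S RNA, where 23.7% of all genes rose and 23.4% fell. Nmd3 had RNA at 47.8, 48.3 and 49.3 CPM in WT, 64.2, 67.7 and 92.7 in P131S (0.63 ± 0.11, adjusted p = 9.23e-05) and 54.4, 64.8 and 67.6 in Rpl11+/- (0.36 ± 0.11). Lsg1, the GTPase that releases Nmd3, rose in P131S by 0.33 ± 0.08 in RNA and 0.48 ± 0.13 in footprints. Sbds, which acts in the release of eIF6 from the large subunit, was not called in RNA in any of the 7 genotypes and rose in P131S footprints (0.42 ± 0.13, adjusted p = 0.0383). The footprint call was lost in 5 of 6 fits that each omitted a clone, and the Rpl11+/- RNA call of Nmd3 in 5 of 6.

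**Figure D4:**
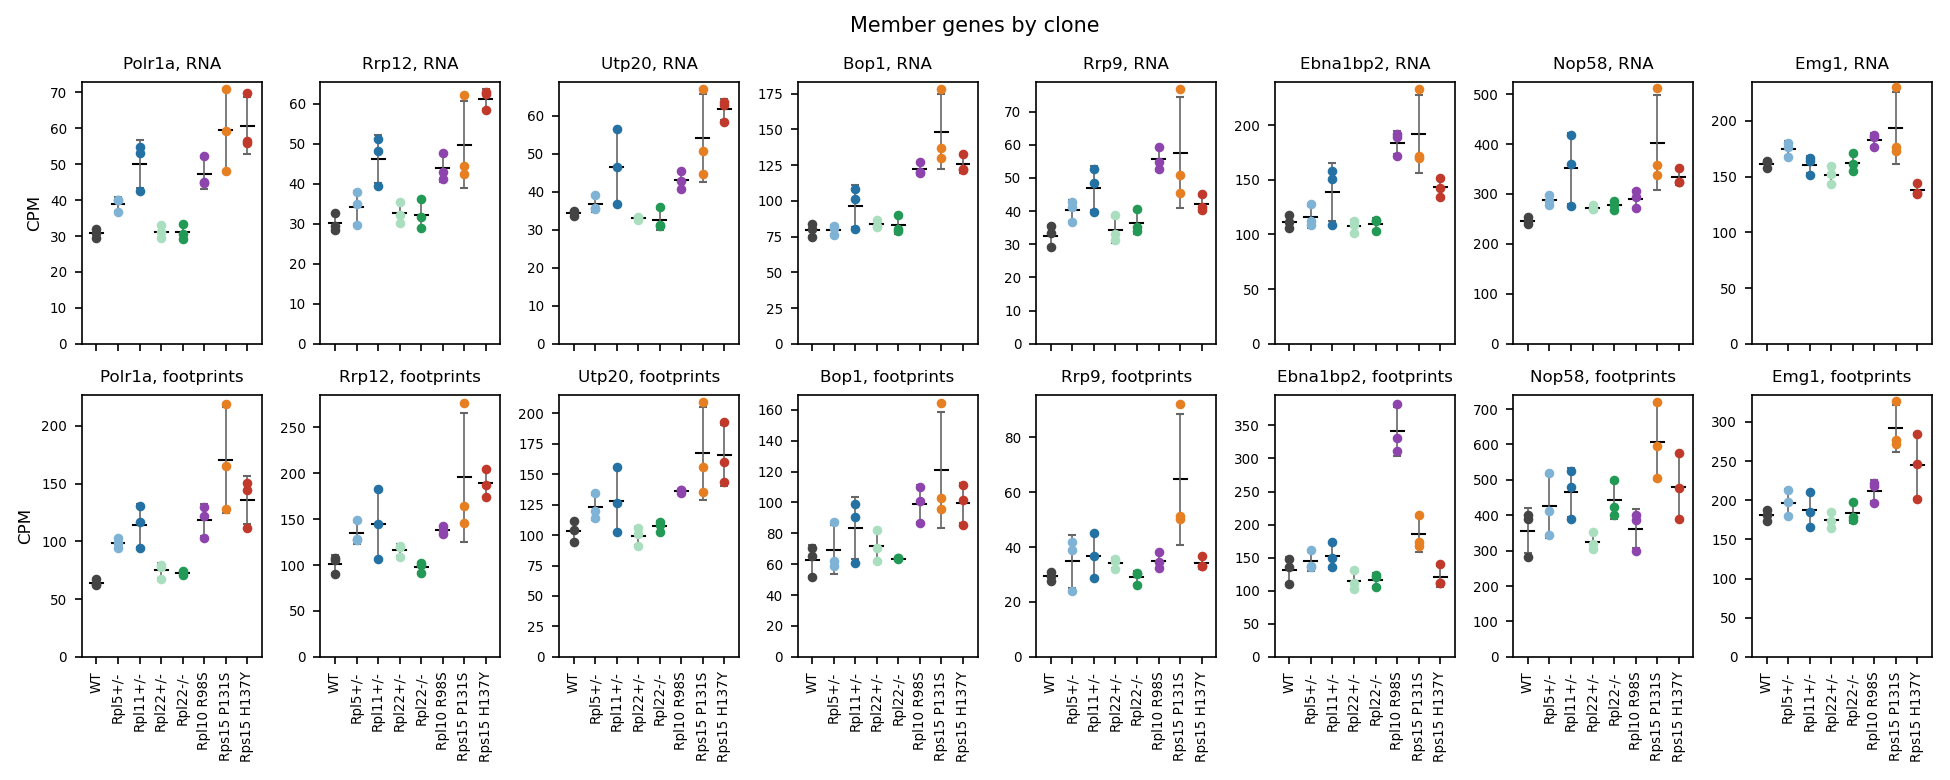
CPM (y axis, from 0) of 8 members in each clone (points) by genotype, for RNA in the upper and footprints in the lower row, with the mean (black line) and SD (bar) of 3 clones. All Rps15 clones lie above all WT clones for Polr1a, Rrp12, Utp20 and Bop1 at both levels, and Emg1 RNA in H137Y lies below WT while its footprints lie above.

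Changes in RNA and in footprints were related across the members, which are not independent replicates and whose assays come from the same lysates. Pearson's r over the 57 members was 0.57 in P131S, 0.71 in H137Y, 0.60 in R98S and 0.78 in Rpl11+/-. In P131S 30 members were called at both levels, 17 in RNA alone and 4 in footprints alone. In H137Y 14 were called at both levels, of which 1 (Emg1) in opposite directions, with 20 in RNA alone and 1 in footprints alone. Of all genes 47.0% were called in RNA and 16.7% in footprints in P131S, and 41.0% and 11.7% in H137Y. The shares of all genes called at both levels or at 1 alone were not computed, so these counts are not set against them.

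**Figure D5:**
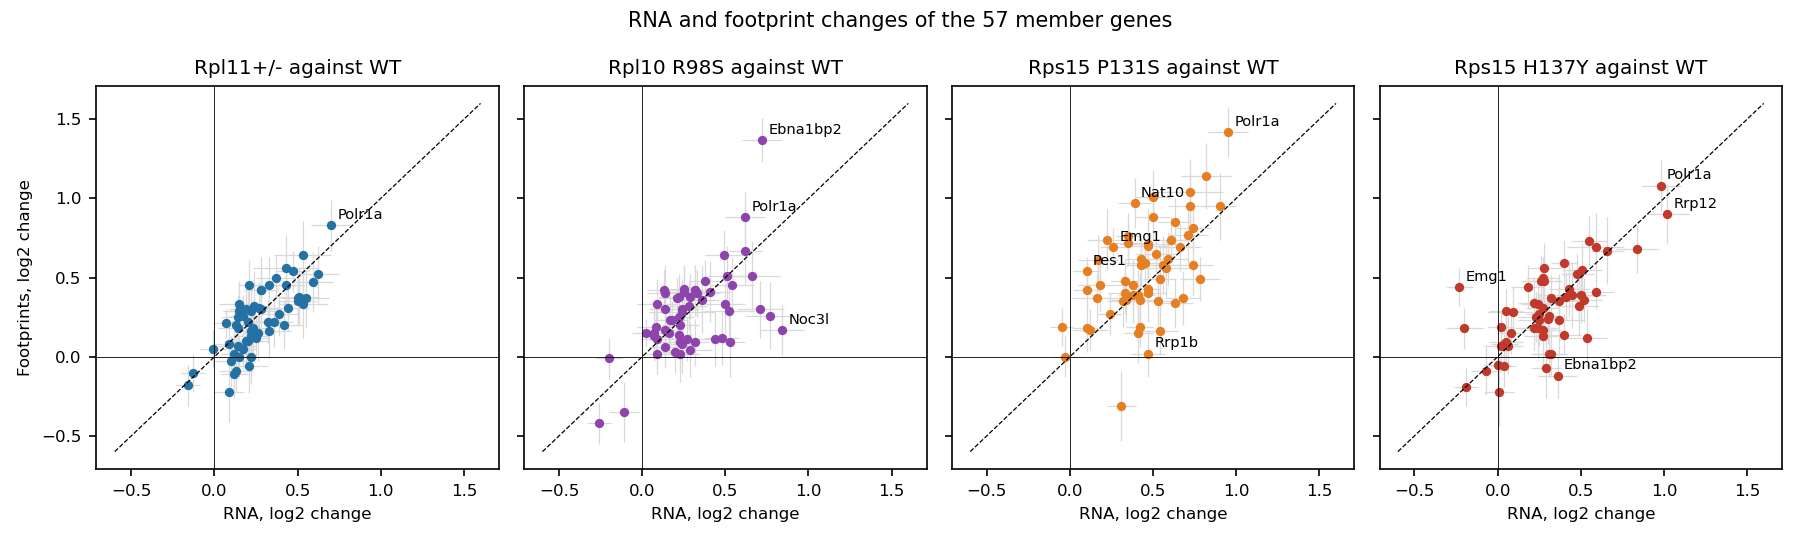
Log2 change against WT in RNA (x axis) and footprints (y axis) for each member (points, with SE as grey bars) in 4 genotypes; the dashed line marks equal change. Ebna1bp2 lies above the line in R98S (0.72 and 1.37), Noc3l below it (0.84 and 0.17), and Emg1 in H137Y lies left of 0 and above 0.

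Translational efficiency, the ratio of footprints to RNA, was tested as the interaction of assay and genotype over 12074 genes. Few members were called. In P131S 2 rose (Pes1, Emg1), against 2.26% of all genes rising and 3.13% falling (5.39% in all). In H137Y 1 rose (Emg1), against 1.58% and 2.7% (4.28% in all). In R98S edgeR called 0 members and 0.364% of all genes (0.141% higher, 0.224% lower), and DESeq2 and limma voom called 0 members. There 2 members and 1040 of all 12074 genes had an unadjusted p under 0.05. In Rpl5+/-, Rpl11+/-, Rpl22+/- and Rpl22-/- edgeR, DESeq2 and limma voom called 0 members. An unadjusted p under 0.05 was found for 0, 0, 2 and 1 members and for 240, 473, 1119 and 669 of all genes. EdgeR called 0.0%, 0.0%, 0.00828% and 0.0414% of all genes there (0.0248% higher and 0.0166% lower in Rpl22-/-). In Rpl22-/- against Rpl22+/- edgeR, DESeq2 and limma voom called 0 members, with 7 at an unadjusted p under 0.05, as were 1335 of all genes.

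The ratio of Emg1 was 1.05, 1.15 and 1.15 in WT, 1.42, 1.56 and 1.57 in P131S and 1.501, 1.82 and 1.98 in H137Y. Neither Rps15 genotype overlapped WT (0.45 ± 0.13, adjusted p = 0.0398 in P131S, 0.69 ± 0.13, adjusted p = 0.00157 in H137Y). Omitting a clone at a time kept the H137Y call in 6 of 6 fits and the P131S call in 1 of 6. The ratio of Pes1 was 1.38, 1.51 and 1.59 in WT and 1.93, 2.06 and 2.08 in P131S (0.46 ± 0.12, adjusted p = 0.014), a call kept in 4 of 6 fits. Its RNA was not called there and its footprints rose by 0.54 ± 0.09. The ratio of Ebna1bp2 was 1.05, 1.23 and 1.26 in WT and 1.75, 1.81 and 1.99 in R98S, with no overlap, and the difference missed the threshold (0.67 ± 0.19, adjusted p = 0.111). The ratio of Noc3l was 1.42, 1.49 and 1.59 in R98S and 2.15, 2.36 and 2.58 in WT, also with no overlap and no call (-0.64 ± 0.21).

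Both assays of a clone came from 1 lysate, so clone was also used as a replicate block. With the clone block 8 members were called in P131S, when 9.33% of all genes were called, against 2 without it: Nat10, Nolc1, Pes1, Polr1a, Emg1, Pwp2 and Rrn3 rose by 0.41 to 0.58 and Rrp1b fell by 0.43. In R98S the block gave 1 member, Ebna1bp2 (0.68 ± 0.14, adjusted p = 0.0177), when 0.903% of all genes were called. In the mean of the Rps15 genotypes against the large-subunit genotypes it gave 10 members where 6 were called without it, and 17.3% of all genes, a share like that of the members.

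Rps15 P131S and Rps15 H137Y were also compared directly. In RNA 17 members were higher in P131S and 0 lower, with a median difference of 0.15, while 12.6% of all genes were higher and 12.6% lower (25.2% in all). These 17 included Emg1 (0.49 ± 0.08), Rrp9 (0.45 ± 0.15), Fbl (0.42 ± 0.08), Ebna1bp2 (0.42 ± 0.12), Nip7, a pre-60S factor (0.42 ± 0.11), and Pno1 (0.41 ± 0.11). The RNA polymerase I genes Polr1a, Polr1b and Rrn3 were not called, with differences of -0.03 ± 0.12, 0.09 ± 0.11 and -0.05 ± 0.08. In footprints 4 members were higher in P131S (Rrp9, Ebna1bp2, Mrto4 and Pes1), against 2.23% of all genes higher and 1.94% lower (4.17% in all). In translational efficiency 0 were called by edgeR, DESeq2 or limma voom, and 1.18% of all genes were called by edgeR (0.712% higher, 0.472% lower). There 3 members and 1571 of all genes had an unadjusted p under 0.05. This comparison rested on clone 20. Without it the median difference in RNA was 0.01, 2 members were higher and 4 lower in P131S RNA (17.6% of all genes called), and 0 were called in footprints (2.05%). Without H137Y clone 16, 9 were called in RNA (18.8%). In footprints 0 were called without H137Y clone 6 or 2 (2.68% and 2.54%), and 10 without P131S clone 24 (4.93%). Fitted on the libraries of these 2 genotypes alone, edgeR called 0 members in RNA and 0 in footprints, when 3.13% and 0.243% of all genes were called.

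The mean of both Rps15 genotypes was set against the mean of the 5 large-subunit genotypes, a comparison that uses no WT library. In RNA 40 members were higher in the Rps15 genotypes and 2 lower, with a median difference of 0.23, against 26.8% and 25.9% of all genes (52.6% in all). The differences were 0.62 ± 0.07 for Polr1a, 0.60 ± 0.07 for Utp20, 0.57 ± 0.06 for Bop1 and 0.56 ± 0.07 for Rrp12. The lower members were Riok2 (-0.21 ± 0.07) and Utp3 (-0.16 ± 0.04). Nol10, a processome protein, was the 1 member whose clones did not overlap between the sides in RNA (0.40 ± 0.05). The share of all genes without such overlap was not computed at any level. In footprints 37 were higher and 1 lower, with a median of 0.30, against 12.4% and 12.9% of all genes (25.4% in all). Rrn3 (0.67 ± 0.09) and Heatr1 (0.40 ± 0.06) did not overlap between the sides. The lower member was Utp14a (-0.41 ± 0.13), a processome protein with a close copy, Utp14b, in the table. In translational efficiency 4 were higher and 2 lower, against 5.29% and 6.99% of all genes (12.3% in all). Emg1 (0.53), Nat10 (0.45), Rrn3 (0.43) and Pes1 (0.22) were higher, and Ebna1bp2 (-0.43) and Rrp1b (-0.36) lower. The large-subunit side includes the R98S clones, in which Ebna1bp2 footprints were highest.

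Other genes of the pathway, 123 tested genes in 7 lists that hold no member, were counted in the same way. In P131S RNA 75 rose and 7 fell, with a median log2 change of 0.30, against 23.7% of all genes rising and 23.4% falling. In H137Y 40 rose and 15 fell (median 0.14), against 21.0% and 20.0%, so that the share called was close to the 41.0% of all genes. In R98S 32 rose and 1 fell (0.17), against 6.82% and 6.03%, and in Rpl11+/- 13 rose and 2 fell (0.11), against 5.73% and 6.05%. The counts for single lists below are to be read against the same shares. Of 15 RNA helicases that act on pre-rRNA 11 rose and 1 fell in P131S, and 8 rose and 1 fell in H137Y, with Dhx37, which releases U3 snoRNA, at 0.84 and 1.07. Of 39 other large-subunit factors 26 rose and 0 fell in P131S, and 18 rose and 2 fell in H137Y, with the giant remodelling ATPase Mdn1 at 1.15 and 1.34. In R98S 11 of these 39 rose, led by Nol12 at 1.24. Of 25 other small-subunit factors 15 rose and 2 fell in P131S. Wdr46, of the processome, rose by 0.67 there, 0.72 in H137Y and 0.90 in R98S. Of 11 other snoRNP proteins 6 rose in P131S and 0 fell, and of 12 other RNA polymerase I subunits and factors 7 rose and 3 fell. Of 14 exosome genes, whose products trim pre-rRNA, 8 rose in P131S and 0 fell, with Dis3 at 0.54. In H137Y 2 of them rose and 3 fell, with Exosc8 at -0.45. Of 8 tested genes of RNase MRP and RNase P 3 rose and 1 fell in P131S, where Pop1 was at 0.74 and Rpp38 at -0.75.

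Myc RNA fell in the Rps15 genotypes. It was at 375, 381 and 383 CPM in WT, 121, 204 and 258 in P131S and 250, 266 and 301 in H137Y, with no overlap with WT. The P131S change was -0.97 ± 0.18 (adjusted p = 0.000263) and the H137Y change -0.48 ± 0.18 (adjusted p = 0.0389). The part of Myc in the members' changes was not tested. Both Rpl22 genotypes had Myc RNA between 188 and 252 CPM (-0.69 and -0.71, both called lower). All clones of R98S (272, 274 and 287 CPM) and of Rpl11+/- (274, 304 and 366) also lay below WT, with no call. The changes were -0.45 ± 0.18 (adjusted p = 0.103) and -0.27 ± 0.18 (adjusted p = 0.355). In Rpl5+/- Myc RNA was at 356, 359 and 375 CPM (-0.06 ± 0.18, not called). Myc footprints were not called in any of the 7 genotypes, and lay at 361, 447 and 652 CPM in P131S against 567 to 675 in WT. Of the 9 genes of the Myc network 1 rose and 4 fell in P131S RNA and 2 rose and 3 fell in H137Y, against 47.0% and 41.0% of all genes called in either direction. Mycn RNA was at -1.53 and -1.28 there.

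Markers of pro-B cells and of other blood lineages differed between genotypes. Summed RNA of the 14 pro-B cell markers was 237 to 268 CPM in WT, and wholly below that in R98S (173 to 196) and H137Y (186 to 201). It overlapped WT in P131S (186 to 292), Rpl5+/- (244 to 271), Rpl11+/- (233 to 282), Rpl22+/- (241 to 308) and Rpl22-/- (253 to 278). Of 13 neutrophil and monocyte genes 6 (Mpo, Prtn3, S100a8, S100a9, Lyz2, Ltf) had a median of at least 1 CPM over the RNA libraries. None of the 13 was at 0 in every library. Summed RNA of the 13 ran from 43.3 to 164 CPM in WT, 528 to 2840 in P131S and 547 to 3140 in H137Y. It was 172 to 429 CPM in Rpl5+/-, 51.4 to 200 in Rpl11+/- and 28.2 to 30.5 in R98S. It was 50.7 to 120 CPM in Rpl22+/- and 66.8 to 291 in Rpl22-/-. The 3 interleukin 3 receptor genes summed to 876 to 1040 CPM in WT, 2230 to 2840 in P131S and 1420 to 2510 in H137Y. All clones of Rpl5+/- (1280 to 1340 CPM), Rpl11+/- (1070 to 1950) and Rpl22+/- (1150 to 1490) were also above the WT range, while Rpl22-/- (869 to 1070) and R98S (929 to 978) overlapped it. The part of these differences in the members' changes was not tested. Summed over 9 mast cell and basophil markers, RNA lay between 342 and 599 CPM in all clones, with H137Y (342 to 427) wholly below and Rpl11+/- (511 to 593) wholly above WT (442 to 475). Over 6 T cell markers it lay between 0.158 and 13.5 CPM. The 5 erythroid markers summed to 37.9 to 63.7 CPM in WT. They were wholly above WT in H137Y (65.2 to 267) and Rpl11+/- (72.8 to 88.4), and overlapped WT in P131S (22.1 to 44.5), R98S (32.4 to 71.8), Rpl5+/- (59.1 to 76.4) and both Rpl22 genotypes (28.3 to 48). The part of the mast cell and erythroid genes was not tested either.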

How the data were processed

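RNA and ribosome footprints were read from 48 deposited columns of estimated counts per gene, of which 88.5% of values were whole, and 0 other columns of per-sample values were left out. Per the submitters' processing notes, GRCm38, STAR 2.6.1d, Salmon 1.4.0 and DESeq2 1.30 were named, without roles; strand handling is not given in the sources used here. The expected counts were rounded. Genes with 10 counts, scaled to the median library, in 3 libraries and 15 in all were kept. All 8 genotypes entered 1 fit per assay in edgeR 4.0.16 (R 4.3.3; TMM scaling, quasi-likelihood test, Benjamini-Hochberg adjustment over all genes tested, threshold 0.05). Adjusted p-values and SEs in the text are from these fits unless another tool is named. For translational efficiency both assays entered 1 fit with an assay-by-genotype term. Alternatives were RLE scaling, DESeq2 1.42.0, limma 3.58.1 (voom), no filter, only the groups compared, each clone left out, and clone as a block. CPM used the scaled library sizes. An exact permutation test of 3 against 3 clones cannot go below p = 0.1, so none was used. The scripts were tested on simulated data. No pair of libraries of a group differed by less than sampling noise.

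Labels state that each lysate was divided, so RNA and footprint libraries with the same number are paired. Their deviations from the group means correlated by 0.088 to 0.398 over 12074 genes in 24 pairs, and those of different clones by -0.283 to -0.021 in 48. Deviations from a group mean cancel out within each gene, so positive values within clones bring negative values between different clones.

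Members and lists were chosen with earlier results of these data known. Named are, per comparison, up to 6 called members in each direction by size among those whose clones do not overlap, all where 10 or fewer were called, the smallest p in each role, members called in opposite directions, and up to 3 called genes of each other list; Polr1b, Utp14a, Imp4, Pwp2, Wdr12, Noc2l and Sbds were named after their values were seen.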

Additional observations from a re-analysis of the deposited data

Results flagged for a closer look

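The effects of the Rps15 mutations P131S and H137Y on 17 members in RNA and 4 in footprints differed from each other by edgeR's direct test of the difference (adjusted p under 0.05), and all 21 were higher in P131S. Of all genes 25.2% were called in RNA and 4.17% in footprints. Fitted on these 2 genotypes alone, edgeR called 0 members at either level, when 3.13% of all genes were called in RNA and 0.243% in footprints. In RNA the log2 differences, P131S minus H137Y, were those of Ebna1bp2 (0.42), Emg1 (0.49), Fbl (0.42), Imp3 (0.29), Lsg1 (0.24), Ltv1 (0.27), Mrto4 (0.39), Nip7 (0.42), Nmd3 (0.40), Noc2l (0.38), Nop16 (0.33), Npm1 (0.32), Pno1 (0.41), Riok2 (0.32), Rrp9 (0.45), Utp14a (0.30) and Utp18 (0.37). In footprints they were those of Ebna1bp2 (0.61), Mrto4 (0.52), Pes1 (0.35) and Rrp9 (0.91). Without P131S clone 20 the median RNA difference over all 57 members fell from 0.15 to 0.01, the RNA count was 2 higher and 4 lower, and the footprint count was 0.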

How the results depend on the processing

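Over the 10 comparisons and 3 levels, 352 recomputed medians of the members moved by less than the spread between clones and 30 by more, and 330 recomputed counts of called members stayed within 1.5 times and 52 did not. Without P131S clone 20 the count of P131S against H137Y in RNA turned from 17 higher and 0 lower to 2 higher and 4 lower. The cause of the moves was not tested. Fitting only the groups compared gave, in RNA, 24 members called for Rpl5+/- (0 in the fit of all genotypes), 11 for Rpl11+/- (18), 2 for Rpl22+/- (0), 5 for Rpl22-/- (0), 46 for R98S (21) and 0 for P131S against H137Y (17). In footprints fits of the groups compared gave 0 for Rpl11+/- (1), 11 for R98S (2) and 0 for P131S against H137Y (4), and in translational efficiency 2 for R98S (0) and 0 for P131S (2). Of all genes 0.0352%, 4.88% and 0.243% were called in those footprint fits, and 2.28% and 4.88% in those of efficiency. DESeq2 gave 3 for Rpl5+/- in RNA and, in footprints, 2 for Rpl11+/-, 6 for R98S, 7 for P131S against H137Y and 1 for Rpl22-/- against Rpl22+/-. DESeq2 called 2.9% of all genes in that RNA comparison and 1.3%, 4.3%, 7.75% and 1.86% in those of footprints. Without the filter on low counts 8 were called for H137Y and 1 for Rpl22-/- against Rpl22+/- in footprints, and 1 for P131S in translational efficiency, where RLE factors also gave 1. The shares of all genes were 4.02%, 0.0912% and 1.98% without the filter and 5.33% with RLE factors. The replicate block by clone gave 1 for R98S, 8 for P131S and 10 for the Rps15 against the large-subunit genotypes, and changed no other count of calls by over 1.5 times. It put the median efficiency change of Rpl22-/- at 0.04.

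Leaving out a clone at a time gave ranges of called members. The share of all genes called also changed between such fits, as given above for some of them. In RNA the counts were 13 to 19 for Rpl10 R98S, 5 to 25 for Rpl11+/-, 22 to 28 for Rps15 H137Y and 6 to 22 for Rps15 P131S against Rps15 H137Y. In footprints they were 0 to 4 for Rpl11+/-, 6 to 14 for Rps15 H137Y, 0 to 10 for Rps15 P131S against Rps15 H137Y and 22 to 40 for Rps15 P131S. In translational efficiency they were 0 to 2 for Rps15 P131S. The ranges of the medians that moved were 0.00 to 0.06 for Rpl22+/- in RNA, -0.07 to 0.00 for Rpl22+/- in footprints, 0.00 to 0.04 for Rpl10 R98S in translational efficiency, -0.05 to -0.01 for Rpl11+/- in translational efficiency, 0.03 to 0.12 for Rpl22-/- against Rpl22+/- in translational efficiency, 0.00 to 0.07 for Rpl22-/- in translational efficiency. The median efficiency change was -0.06 in Rpl11+/- and 0.03 in R98S both without the filter and in the groups compared alone. For Rpl22-/- it was 0.03 with RLE factors, DESeq2, no filter or the groups compared alone and 0.02 with limma voom.

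For members called in the main fits, 3815 recomputed values kept the call, 500 lost it and none reversed. Members that gained a call in a recomputed fit are not in these counts. With 3 clones a group, the median SE of a member was 0.1 in RNA, 0.16 in footprints and 0.19 in efficiency.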
